A study of Homo sapiens with 15 samples.

Results

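The 9 adenocarcinoma lines of a panel of 15 established non-small-cell lung cancer (NSCLC) lines were compared by their response to ionising radiation, with 6 radioresistant (RR) lines set against 3 radiosensitive (RS) lines. The RR lines were A549, H1650, H1975, H2228, H3122 and HC827, which is HCC827, and the RS lines were Calu3, H1781 and H2009. Membership followed the histology of each line and its SF2, the fraction of colony-forming cells that survived a single dose in the clonogenicity test of the study, with the mean of the panel as the limit. The arrays played no part in it, so the expression levels are independent of the grouping. RNA came from untreated, unirradiated cultures and was hybridised to 1 Affymetrix PrimeView array per line, so the lines themselves are the replicates. A p-value therefore measures the spread between lines, and the spread between cultures of the same line is unknown.

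The groups also differ in the gene that drives the tumour. EGFR is the driver of the RR lines H1650, H1975 and HC827, and ALK of the RR lines H2228 and H3122. ERBB2 is the driver of the RS lines Calu3 and H1781. An EGFR or ALK driver was thus present in 5 of the 6 RR lines and in 0 of the 3 RS lines, and an ERBB2 driver in 0 of 6 RR lines and 2 of 3 RS lines. Radiation response and driver class cannot be told apart for these drivers. Each line is 1 tumour grown in culture without stroma or immune cells. In bulk RNA of a culture, fewer cells that express a gene and less RNA per cell cannot be told apart.

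Ionising radiation kills cells mainly through breaks across both strands of DNA. Survival depends on end joining and homologous recombination, which rejoin the breaks, on checkpoint kinases, which hold the cell cycle while they do so, and on p53, which arrests or removes damaged cells. Growth-factor signalling through the ERBB receptors and the MAPK cascade, the epithelial or mesenchymal state, the defence against oxidants through NRF2 and the adaptation to low oxygen are also known to bear on survival. Only RNA levels of genes of these processes were measured here, before any dose was given, and not their activity.

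Levels are RMA values on the log2 scale, in which a difference of 1 is a doubling, and each of 18132 genes was read from the brightest of its probe sets, by the mean of the 15 lines. Array medians were 5.89 to 5.91 in the RR lines and 5.90 to 5.93 in the RS lines. The lower quartile of the genes lay between 4.46 and 4.59 in the 9 lines, so levels near 3 to 5 are at the dim end of the array. The actin controls read 0.63 to 1.90 brighter with 3' than with 5' probes in the RR lines, with the highest value in H3122, and by 0.85 to 2.09 in the RS lines, with the highest in H1781. The part of this 3' excess in the results was not tested, but the comparison without H1781 and H3122 is given with the alternatives. Pairs of RR lines correlated at r = 0.899 to 0.934 over all genes, RR-RS pairs at 0.885 to 0.942 and pairs of RS lines at 0.891 to 0.913, so the lines were as unlike within a group as between the groups.

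Known features of the lines were read from the arrays first. EGFR, the receptor mutated and amplified in HC827, had levels of 7.22, 9.74 and 13.23 (lowest, median and highest) in the RR lines, with the highest in HC827, and 8.85, 7.90 and 8.21 in Calu3, H1781 and H2009. ALK was at 6.26 and 6.15 in H2228 and H3122, and at 4.20 to 4.39 in the other RR lines, against 4.59, 4.40 and 4.41 in the RS lines. Neither receptor differed by the test (EGFR difference 1.59, limma p = 0.177, exact permutation p = 0.238; ALK difference 0.48, limma p = 0.393, exact permutation p = 0.5). NKX2-1, the lineage factor of alveolar cells, was high in 4 RR lines (7.75 to 10.97) and low in A549 (3.84) and H1650 (4.18), and among the RS lines it was high in H1781 (11.00) and H2009 (10.69) and low in Calu3 (4.31). The 10 adenocarcinoma markers had mean levels of 7.36 to 9.64 in the RR lines and 7.67 to 9.79 in the RS lines, and none was called. Of 17 haematopoietic and stromal markers 16 were measured, with mean levels of 4.79 to 5.28 in the RR lines and 4.59 to 5.09 in the RS lines, and none was called.

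A gene was called where the unadjusted limma p was under 0.05 and the means differed by over 1 on the log2 scale. Of 18132 genes 224 were called, or 1.24%, with 80 higher (0.441%) and 144 lower (0.794%) in the RR lines. At the unadjusted p alone 744 genes passed, or 4.1%, which is below the share that a threshold of 0.05 lets through when nothing differs. No gene passed a Benjamini-Hochberg adjusted p of 0.05 in limma's test. The lowest adjusted p was 0.99, and 0 genes passed with the methods' t-test (722 at an unadjusted p under 0.05) or its exact permutation form (732). The calls below are therefore a ranking of these 9 lines and not a set of genes shown to differ. The limma p and the two-sided exact permutation p over the 84 possible groupings of the 9 lines, which cannot go below 0.0119, are given for each, and the adjusted p of each called gene was 0.99.

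The level of every RR line lay on the same side of all RS lines in 335 genes, or 1.85%, of which 205 (1.13%) were higher and 130 (0.717%) lower in the RR lines. The RS lines did not contribute equally to the calls. Of the 144 genes lower in RR, Calu3 lay outside the RR range in 114, H1781 in 117 and H2009 in 65, and all 3 RS lines did so in 31. In 59 of them Calu3 and H1781, the lines with an ERBB2 driver, were outside the range and H2009 was inside it. Of the 80 genes higher in RR, the counts were 54 for Calu3, 63 for H1781 and 43 for H2009, and all 3 RS lines were outside the RR range in 17. Over all genes, H2009 was the RS line that correlated most closely with every RR line (r = 0.9075 to 0.9416). The values were 0.8944 to 0.9237 for Calu3 and 0.8851 to 0.9332 for H1781. The same counts were not made over all genes, so whether the inequality is particular to the called genes was not tested. Without Calu3 346 genes were called, without H2009 522 and without H3122 352.

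The largest higher mean was that of SPOCK1, which encodes the extracellular matrix proteoglycan testican. Its levels were 6.09, 9.02 and 12.35 (lowest, median and highest) in the RR lines, with the highest in H1650, against 3.93, 3.67 and 3.56 in Calu3, H1781 and H2009. Every RR line was above every RS line by at least 2.16, and the RS values lie at the dim end of the array. The difference was 5.27 (SE 1.30, limma p = 0.00319, exact permutation p = 0.0238). The call held with any single line left out (4.60 to 5.85) and was lost with SF2 order as predictor and without the ERBB2-driven lines.

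COL4A1 and COL4A2 encode the main chains of the type IV collagen of basement membranes. COL4A2 had levels of 3.97, 8.76 and 11.04 (lowest, median and highest) in the RR lines, against 4.51, 4.12 and 5.79 in Calu3, H1781 and H2009. COL4A1 had levels of 4.64, 8.17 and 10.42 in the RR lines, against 4.35, 4.81 and 4.76 in the RS lines. Both were highest in H2228 and lowest among RR in H1975, where COL4A2 was below every RS line and COL4A1 within the RS range, so the groups overlapped. The differences were 3.36 for COL4A2 (SE 1.36, limma p = 0.0369, exact permutation p = 0.0833) and 2.99 for COL4A1 (SE 1.28, limma p = 0.0456, exact permutation p = 0.0714). The calls are unstable. COL4A2 was not called when A549, H1650, H2228, HC827, Calu3 or H1781 was left out (2.79 to 4.20 over the 9 omissions), and COL4A1 was called only without H1975 or without H3122 (2.44 to 3.59). The 2 other probe sets of each gene gave smaller differences, of 1.18 and 1.38 for COL4A2 and of 0.21 and 1.71 for COL4A1.

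The pair is shown with its promoter because its members varied together over the lines (r = 0.944 over 9 lines and 0.928 over the 6 RR lines, from the same arrays). The genes start 127 bases apart on opposite strands of chromosome 13, and windows of 250 bases before to 50 bases after the start of each largely coincide. The window of COL4A2 at chr13:110307034-110307333 (GRCh38.p14, plus strand, RefSeq) is printed with matches to the CCAAT box (CCAAT) and the GC box (GGGCGG), searched on both strands, in capitals.
COL4A2: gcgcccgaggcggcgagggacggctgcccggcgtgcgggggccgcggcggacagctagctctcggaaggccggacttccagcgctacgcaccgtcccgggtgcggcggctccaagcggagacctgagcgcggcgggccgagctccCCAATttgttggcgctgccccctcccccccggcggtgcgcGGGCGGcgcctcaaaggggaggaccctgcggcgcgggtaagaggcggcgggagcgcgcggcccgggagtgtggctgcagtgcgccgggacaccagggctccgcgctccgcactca
It held 1 match to each motif. Of 35116 RefSeq windows of this length, 34.6% held a CCAAT box and 45.0% a GC box, so neither match sets the window apart, and a match is not a site of binding.

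LOXL2, a lysyl oxidase that cross-links collagens, had levels of 4.95, 9.40 and 10.80 in the RR lines, against 6.02, 4.57 and 7.61 in Calu3, H1781 and H2009. H3122 alone among RR lines was as low as the RS lines. The difference was 2.88 (SE 1.26, limma p = 0.0499, exact permutation p = 0.0833), and the call held only without H3122 or without H2009 (2.14 to 3.68 over the 9 omissions). TIMP1, an inhibitor of matrix metalloproteinases, named after its values were seen, had levels of 9.40, 10.06 and 10.35 in the RR lines, against 8.35, 6.24 and 9.31 in the RS lines. The groups did not overlap, and the difference of 1.96 (SE 0.59, limma p = 0.00945, exact permutation p = 0.0119) stayed called with any line left out (1.10 to 2.63), although 1 of its 2 other probe sets had a difference of -0.13. CST3, the secreted cysteine protease inhibitor cystatin C, had levels of 8.40, 9.25 and 9.60 in the RR lines, against 7.37, 4.41 and 7.86 in the RS lines. These groups did not overlap either, and the difference was 2.62 (SE 0.70, limma p = 0.005, exact permutation p = 0.0119; 1.55 to 3.28 with single lines left out). Of the alternatives, CST3 was not called without the EGFR lines, and TIMP1 was lost under 4, among them leaving out the EGFR lines or the ERBB2-driven lines.

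CD109, a membrane-anchored protein that binds TGF-beta and its receptor, had levels of 9.34, 10.91 and 12.28 in the RR lines, against 7.88, 5.0 and 10.99 in Calu3, H1781 and H2009. H2009 was inside the RR range. The difference was 3.09 (SE 1.18, limma p = 0.0292, exact permutation p = 0.0476), and it was not called without H2228, H3122, Calu3 or H1781 (1.62 to 4.61). ABCG2, an efflux transporter of drugs and porphyrins, had levels of 6.16, 8.33 and 9.87 in the RR lines, against 4.14, 5.49 and 5.49 in the RS lines. The RR lines were all above the RS lines, and A549, H1650 and H1975 were above 9.7. The difference was 3.13 (SE 1.0, limma p = 0.0133, exact permutation p = 0.0238), and it was not called without Calu3 (2.68). The call was also lost without the ERBB2-driven lines and with H358 and H1437 added. The other probe set of ABCG2 gave a smaller difference, of 0.97.

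TUBA1A and MAP1B, an alpha-tubulin and a microtubule-binding protein best known in neurons, were higher as well. TUBA1A had levels of 8.24, 9.54 and 11.00 in the RR lines, against 6.91, 8.85 and 3.49 in Calu3, H1781 and H2009, and without H2009 it was not called (difference 3.09 with all lines, limma p = 0.0239, exact permutation p = 0.0357, and 1.62 without H2009). MAP1B had levels of 7.50, 10.25 and 11.95 in the RR lines, against 7.77, 4.74 and 9.22 in the RS lines (difference 2.94, limma p = 0.0323, exact permutation p = 0.0476). H3122 was inside the RS range for MAP1B and H1781 inside the RR range for TUBA1A. MAP1B was not called without A549, H1975, H2228, Calu3 or H1781 (1.69 to 3.93). The remaining genes with the largest higher means were OLFM1, PNMA8A and TCEAL8, at differences of 2.78, 2.72 and 2.64. All 3 had overlapping groups, and each lost its call on leaving out any of at least 6 of the 9 lines. OLFM1 was not called without H1650, H1975, H2228, H3122, Calu3, H1781 or H2009 (2.27 to 3.45), PNMA8A without A549, H1650, H3122, HC827, Calu3, H1781 or H2009 (2.32 to 3.29), and TCEAL8 without A549, H1975, H3122, HC827, Calu3 or H1781 (1.80 to 4.30). The 3 other probe sets of OLFM1 gave 0.13 to 2.63. TCEAL8 was low only in Calu3 (4.08) and H1781 (4.14), against 9.07 in H2009.

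**Figure D1:**
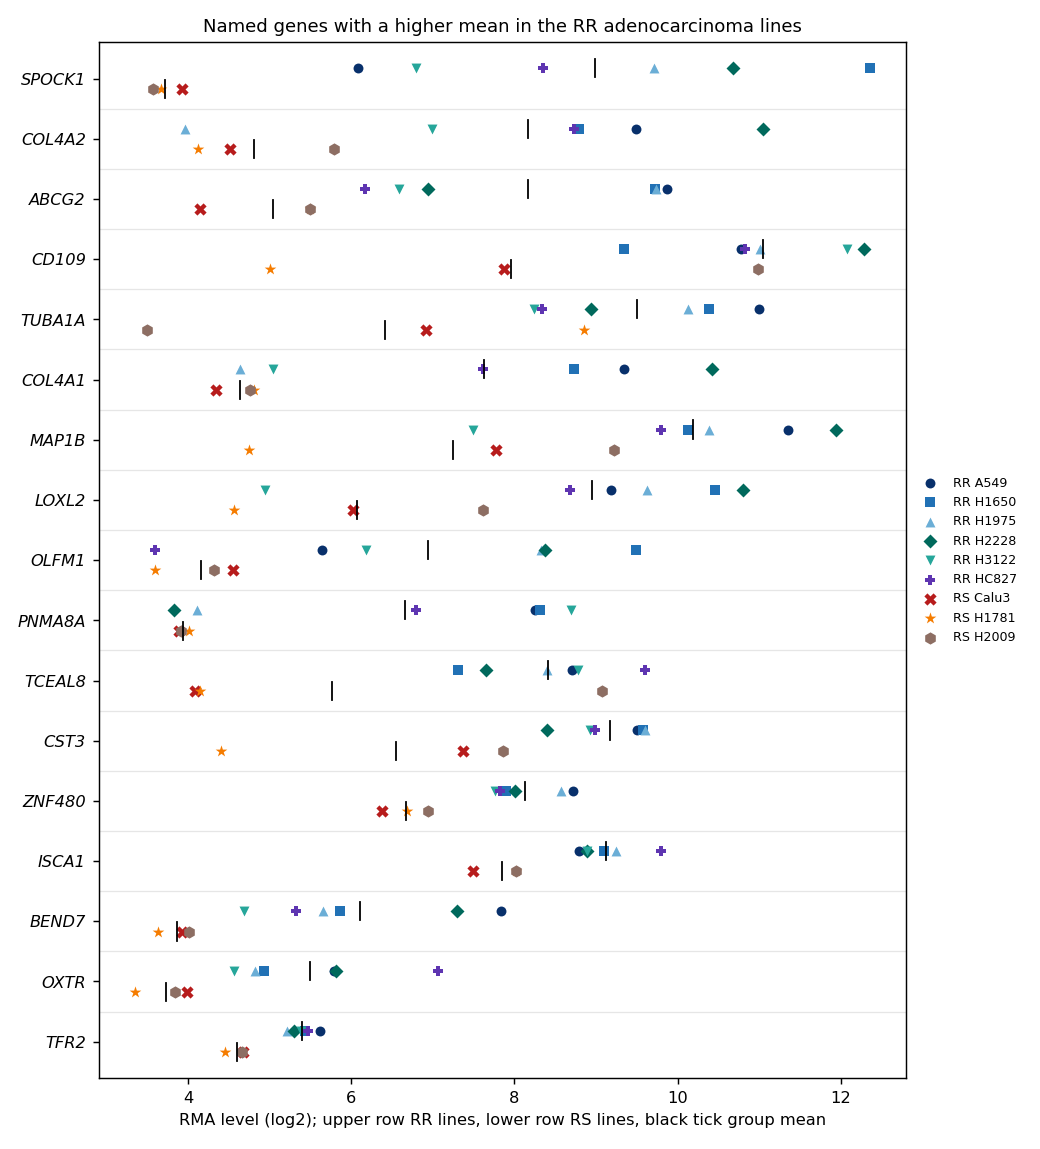
Levels (log2 RMA, horizontal axis) of the named genes with a higher mean in RR, with the 6 RR lines in the upper and the 3 RS lines in the lower row of each gene and a black tick at each group mean. SPOCK1 has the largest difference (5.27), while COL4A1, COL4A2, LOXL2 and PNMA8A have RR lines within or below the RS range.

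Other genes had smaller differences without overlap between the groups. ZNF480, a zinc finger gene, had levels of 7.77, 7.95 and 8.72 in the RR lines, against 6.38, 6.68 and 6.94 in Calu3, H1781 and H2009. Its groups were 0.83 apart, and its 3 other probe sets gave differences of 1.32 to 1.62. The difference of 1.47 (SE 0.25, limma p = 0.000339, exact permutation p = 0.0119) was called under every alternative tried. ISCA1, which takes part in assembling mitochondrial iron-sulphur clusters, had levels of 8.79, 9.0 and 9.79 in the RR lines, against 7.50, 8.02 and 8.02 in the RS lines (difference 1.27, SE 0.24, limma p = 0.00058, exact permutation p = 0.0119; groups 0.77 apart). Its 2 other probe sets gave 1.26 and 1.30, and the call was lost with SF2 order as predictor and with H358 and H1437 added. OXTR, the oxytocin receptor, and BEND7 were higher by 1.77 (limma p = 0.00849, exact permutation p = 0.0238) and 2.25 (limma p = 0.00878, exact permutation p = 0.0357) without overlap, from RS levels of at most 4.02, but the other probe set of BEND7 had a difference of -0.14. Both calls were lost without the ERBB2-driven lines and with the spread taken from all 15 lines. TFR2, a transferrin receptor, did not overlap either but stayed below the fold limit, with levels of 5.21, 5.40 and 5.61 in the RR lines and of 4.67, 4.45 and 4.66 in the RS lines (difference 0.80, limma p = 0.000102, exact permutation p = 0.0119).

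The largest lower mean was that of CDKN2A, which encodes the CDK4 inhibitor p16 and the p53-stabilising protein ARF. Levels in the RR lines were 4.96 in A549, 4.15 in H1650, 8.98 in H1975, 5.22 in H2228, 4.28 in H3122 and 12.48 in HC827. The RS lines were all high, at 12.28 in Calu3, 11.62 in H1781 and 12.33 in H2009. In 4 RR lines the level was thus at the dim end, H1975 was between, and HC827 was the highest of the 9. CDKN2B, the neighbouring gene for the related inhibitor p15, was likewise highest within RR in HC827 and next in H1975, with 3.04, 3.21, 5.62, 3.32, 3.57 and 7.10 in A549, H1650, H1975, H2228, H3122 and HC827, against 8.18, 8.42 and 6.25 in Calu3, H1781 and H2009. The groups overlapped in both genes through HC827. The differences were -5.40 for CDKN2A (SE 1.83, limma p = 0.0171, exact permutation p = 0.0952) and -3.31 for CDKN2B (SE 0.99, limma p = 0.00962, exact permutation p = 0.0357), and both calls held with any single line left out. CDKN2A lost its call under 6 other alternatives (SF2 order as predictor, without H1781 and H3122, without the ALK lines, without the ERBB2-driven lines, with H358 and H1437 added, and the exact permutation form of the t-test), and CDKN2B under 4 (the same but for the ALK lines and the permutation form). The 2 other probe sets of CDKN2A gave -2.78 and -2.70, and those of CDKN2B gave -2.71 and -0.44. Over the 6 RR lines the genes correlated at r = 0.981.

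MTAP, the methylthioadenosine phosphorylase gene close to CDKN2A on chromosome 9, was named after its values were seen. It was at the dim end only in H2228 (3.70) and H3122 (4.29) among the RR lines, with 8.20, 8.49, 6.30 and 9.33 in A549, H1650, H1975 and HC827, against 9.03, 6.47 and 8.33 in Calu3, H1781 and H2009. On the probe sets used, A549 and H1650 thus had little CDKN2A signal with an MTAP level in the RS range. The ALK lines had neither. The MTAP difference was -1.23 (limma p = 0.389, exact permutation p = 0.429). The 5 other probe sets of MTAP gave differences of -3.40 to -0.0081, so the size of the difference depended on the probe set. Copy number was not measured here.

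The genes next to ERBB2 on chromosome 17 made a second group of neighbours. ERBB2, the receptor tyrosine kinase HER2, had levels of 8.11, 8.31 and 8.96 in the RR lines, against 14.09, 10.29 and 9.30 in Calu3, H1781 and H2009. GRB7, an adaptor that binds this receptor, had levels of 6.16, 6.50 and 6.66 in the RR lines, against 12.86, 8.48 and 7.56 in the RS lines. All RS lines were above all RR lines in both genes, H2009 included. The differences were -2.79 for ERBB2 (SE 0.90, limma p = 0.0134, exact permutation p = 0.0119) and -3.18 for GRB7 (SE 0.98, limma p = 0.011, exact permutation p = 0.0119). Leaving out Calu3 brought them to -1.36 and -1.56, still called. Both calls were lost with SF2 order as predictor and without the EGFR lines, and that of ERBB2 also without the ERBB2-driven lines and with H358 and H1437 added.

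The signal of Calu3 spread over the neighbourhood. Of ERBB2 and the 8 measured genes on each side, 17 in all, Calu3 had the highest level of the 9 lines in 14 and exceeded every other line by more than 2 in 7, namely STARD3, ERBB2, MIEN1, GRB7, GSDMB, ORMDL3 and PSMD3. Over all 18132 genes it did so in 81. STARD3, a lipid transfer protein, was at 7.84 to 8.28 in the RR lines, against 13.12, 8.59 and 8.06 in Calu3, H1781 and H2009. MIEN1 was at 8.08 to 9.29 in the RR lines, against 13.23, 8.97 and 8.20 in the RS lines, and PSMD3, a proteasome subunit, at 8.59 to 9.80, against 13.00, 9.43 and 9.17. These 3 neighbours were thus high in Calu3 alone and were not called (limma p = 0.0964, 0.24 and 0.145, exact permutation p = 0.0595, 0.321 and 0.179). ORMDL3, a regulator of sphingolipid synthesis, was high in H1781 too, with 6.92, 7.15 and 8.16 in the RR lines, against 12.37, 9.44 and 7.50 in Calu3, H1781 and H2009 (difference -2.46, limma p = 0.0222, exact permutation p = 0.0238, not called without Calu3 at -1.16). GSDMB, a gasdermin, had 5.19 to 6.54 in the RR lines, against 12.57, 7.21 and 5.39 (difference -2.75, limma p = 0.0688, exact permutation p = 0.0595). STARD3, MIEN1, PSMD3, ORMDL3 and GSDMB were named after their values were seen.

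**Figure D2:**
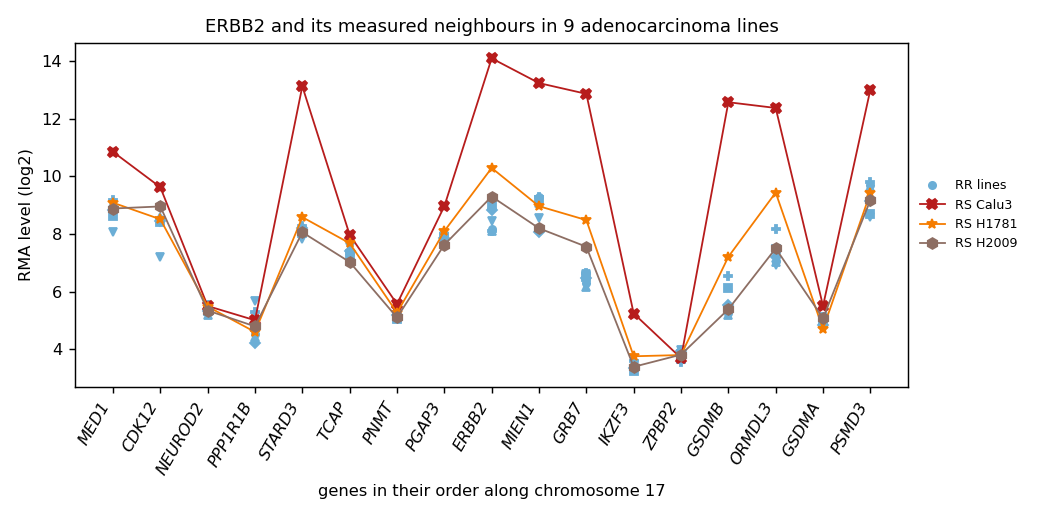
Levels (log2 RMA) of ERBB2 and its 16 measured neighbours in their order along chromosome 17, with the RR lines as blue points and Calu3, H1781 and H2009 as connected points. Calu3 stands more than 2 above every other line in 7 of the 17 genes, and ERBB2 and GRB7 are higher in all 3 RS lines than in any RR line.

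AASS, which starts the breakdown of lysine, had levels of 3.90, 4.80 and 6.58 in the RR lines, against 8.35, 9.34 and 6.44 in Calu3, H1781 and H2009. Only H2228 reached the level of H2009, and the difference was -3.14 (SE 0.77, limma p = 0.00304, exact permutation p = 0.0238). AASS was not called without the ERBB2-driven lines, which left H2009 as the only RS line. ENPP5, of the ectonucleotide pyrophosphatase family, had levels of 3.62, 4.07 and 5.90 in the RR lines, against 8.71, 6.61 and 7.09 in the RS lines. Its groups were 0.71 apart, with a difference of -3.14 (SE 0.61, limma p = 0.000706, exact permutation p = 0.0119). With H358 and H1437 added, ENPP5 was not called. ENPP4, the adjacent gene of the same family, named after its values were seen, had levels of 4.19, 5.36 and 8.74 in the RR lines, against 9.34, 8.96 and 7.78 (difference -2.72, limma p = 0.0197, exact permutation p = 0.0595). H3122 was inside the RS range for ENPP4, which was not called without Calu3 or without H1781 (-3.27 to -2.36 over the 9 omissions). GUCY1B1, a subunit of the nitric oxide receptor guanylate cyclase, had levels of 3.66, 4.72 and 7.20 in the RR lines, against 9.12, 9.49 and 5.42 (difference -3.12, limma p = 0.0171, exact permutation p = 0.0238). It was not called without Calu3 or without H1781 (-4.41 to -2.38).

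KRT13, a keratin of stratified epithelia, was at 5.05, 5.21 and 5.42 in the RR lines, against 11.65, 5.11 and 9.95 in Calu3, H1781 and H2009. H1781 was as low as the RR lines. The difference was -3.69 (SE 1.17, limma p = 0.0124, exact permutation p = 0.0714), and it was not called without Calu3 or without H2009 (-5.59 to -2.32). VTCN1, the immune checkpoint ligand B7-H4, had levels of 3.45, 3.77 and 7.70 in the RR lines, against 9.14, 8.33 and 5.75 (difference -3.04, limma p = 0.026, exact permutation p = 0.0714, not called without Calu3 or H1781, -4.03 to -2.33). AQP4, the water channel of alveolar and glial membranes, was at 3.07, 3.24 and 3.31 in the RR lines, against 7.31, 5.79 and 3.21, so only Calu3 and H1781 had a signal (difference -2.22, limma p = 0.0137, exact permutation p = 0.0595, and -1.28 without Calu3, not called). The 4 other probe sets of AQP4 gave -0.47 to -0.08.

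SATB1, a chromatin organiser, had levels of 4.21, 4.64 and 7.28 in the RR lines, with H3122 highest, against 8.75, 8.88 and 6.23 in Calu3, H1781 and H2009 (difference -2.93, SE 0.81, limma p = 0.00616, exact permutation p = 0.0238). HOXB3 had 3.86, 7.01 and 8.08, against 10.21, 10.68 and 7.23 (difference -2.87, limma p = 0.0303, exact permutation p = 0.0714), and ZNF711 had 3.03, 5.22 and 6.41, against 8.99, 9.32 and 5.0 (difference -2.86, limma p = 0.0399, exact permutation p = 0.0714). The 2 other probe sets of SATB1 gave -3.42 and -0.10, and the 3 of HOXB3 gave -2.52 to -0.23. In these 3 genes H2009 was inside the RR range and the ERBB2-driven lines were above it. SATB1 held its call with any single line left out. It was not called without the EGFR lines, without the ERBB2-driven lines or with H358 and H1437 added. HOXB3 was not called without HC827, Calu3 or H1781 (-3.94 to -2.21), and ZNF711 not without H1650, H1975, HC827, Calu3 or H1781 (-4.24 to -2.08). FOXO1, the transcription factor that AKT keeps out of the nucleus, differed in all lines, with 5.56, 6.07 and 6.79 in the RR lines, against 7.50, 8.17 and 7.47 (difference -1.56, SE 0.28, limma p = 0.000451, exact permutation p = 0.0119). Its groups were 0.68 apart, and its 3 other probe sets gave -1.34 to -0.11. FOXO1 was not called with the mean of all probe sets or with SF2 order as predictor.

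The widest gap among the lower genes was that of PAIP2B, an inhibitor of the poly(A)-binding protein and so of translation. It had levels of 3.93, 5.10 and 6.26 in the RR lines, against 7.22, 7.89 and 7.42 in Calu3, H1781 and H2009. The groups were 0.96 apart, with a difference of -2.38 (SE 0.51, limma p = 0.00132, exact permutation p = 0.0119) that was called under every alternative tried. ATP6AP1L was called under every alternative as well, with levels of 4.76, 5.21 and 6.13 in the RR lines, against 6.95, 6.68 and 6.65 in the RS lines (difference -1.47, SE 0.30, limma p = 0.000915, exact permutation p = 0.0119). Its other probe set gave -0.59. RABGAP1L, a regulator of Rab GTPases, was lower by 2.29 on the log2 scale (limma p = 0.000688, exact permutation p = 0.0119), with groups 0.60 apart, though 1 of its 2 other probe sets had a difference of 0.05. The call of RABGAP1L was lost without the ERBB2-driven lines and with H358 and H1437 added. TMC4 was lower by 2.01 on the log2 scale (limma p = 0.0186, exact permutation p = 0.0595) without overlap, and not called without H1781 (-1.70). EHMT2, the histone H3 lysine methyltransferase G9a, did not overlap at a difference of -0.71 (limma p = 0.000241, exact permutation p = 0.0119), with 6.17, 6.38 and 6.52 in the RR lines and 6.94, 7.19 and 7.09 in the RS lines.

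**Figure D3:**
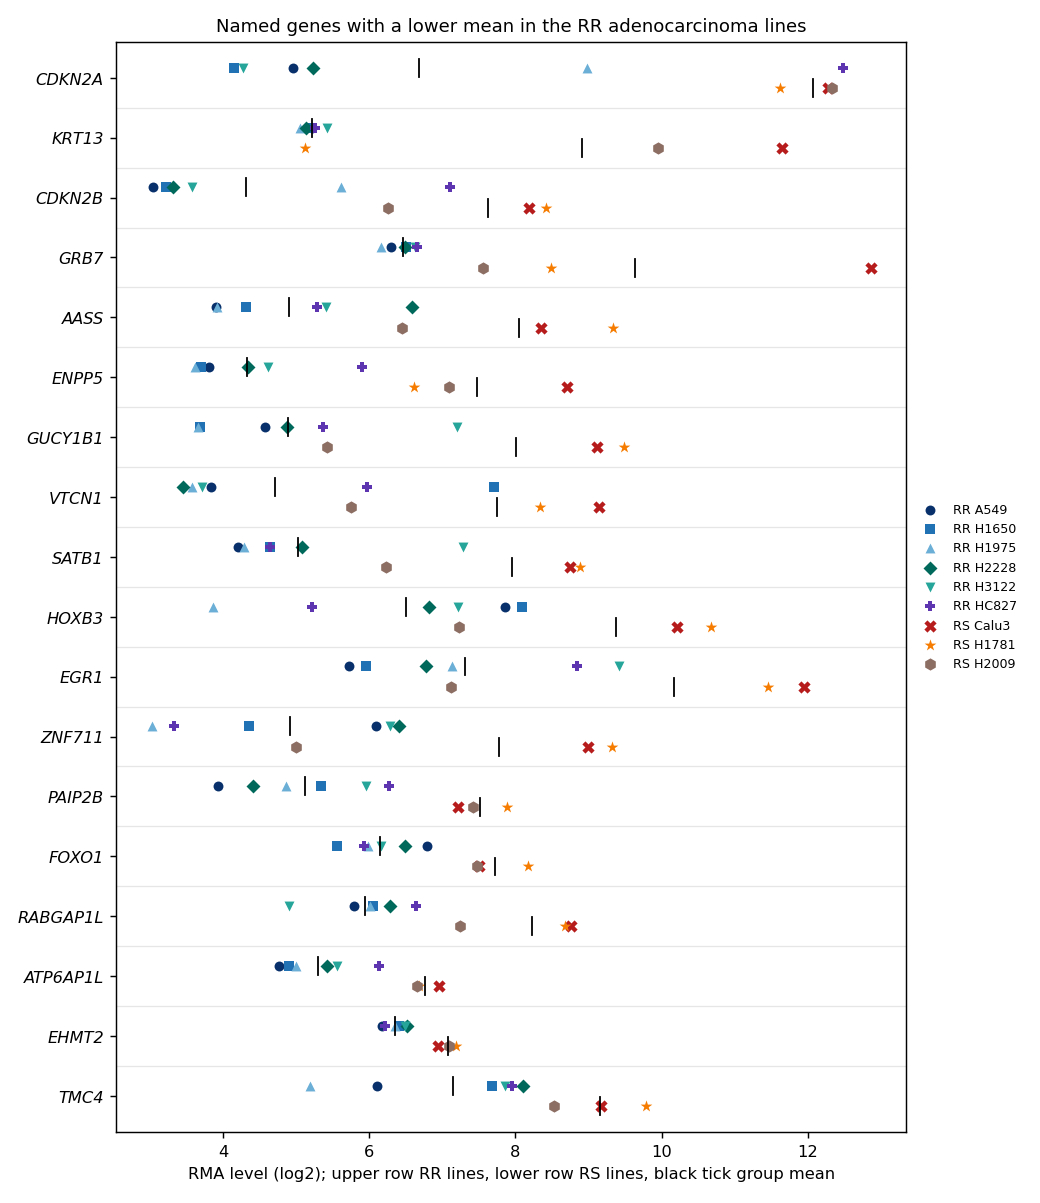
Levels (log2 RMA, horizontal axis) of the named genes with a lower mean in RR, with the 6 RR lines in the upper and the 3 RS lines in the lower row of each gene and a black tick at each group mean. CDKN2A has the largest difference (-5.40) with HC827 as high as the RS lines, and PAIP2B, GRB7, ENPP5 and FOXO1 have no overlap.

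Gene lists were described by their counts and medians beside those of all genes, of which 9537 had a higher and 8595 a lower mean in RR, with a median difference of 0.01. The list that lay lowest was that of epithelial genes. Of 22 members 21 had a lower mean in the RR lines, with a median of -1.27, and 2 were called, both lower. CLDN3, a claudin of tight junctions, had levels of 5.09, 6.92 and 8.87 in the RR lines, against 10.35, 10.67 and 7.74 in Calu3, H1781 and H2009 (difference -2.71, SE 0.94, limma p = 0.0191, exact permutation p = 0.0595). PRSS8, the membrane protease prostasin, had levels of 7.09, 8.24 and 9.70 in the RR lines, against 9.89, 10.44 and 9.31 (difference -1.69, SE 0.55, limma p = 0.015, exact permutation p = 0.0476). H1650 overlapped the RS lines in PRSS8, and H3122 and HC827 did in CLDN3. CLDN3 was not called without Calu3 or H1781 (-3.64 to -2.17), and PRSS8 not without H1781 (-1.41).

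A549 and H1975 lay farthest from the RS lines in this list. The mean level of the 22 genes was 6.84 in A549 and 7.53 in H1975, and 9.49, 9.57, 9.73 and 9.64 in H1650, H2228, H3122 and HC827, against 10.05, 10.21 and 9.95 in Calu3, H1781 and H2009. ESRP1, a splicing regulator of epithelial cells, shows the pattern, with 3.92 in A549 and 5.06 in H1975 but 9.80 to 10.75 in the other RR lines, against 10.35, 11.68 and 11.10 in the RS lines. RAB25, a GTPase of the recycling endosome, was at 5.43 and 5.40 in A549 and H1975 and 9.19 to 10.29 in the other RR lines, against 10.39, 11.26 and 11.18, without overlap between the groups (difference -2.67, limma p = 0.0608, exact permutation p = 0.0952). CDH1, which encodes E-cadherin, was at 8.10, 11.47 and 12.50 in the RR lines, against 11.85, 11.70 and 12.91 (difference -1.26, limma p = 0.262, exact permutation p = 0.345). The list's median was -0.67 without A549 and -0.96 without H1975. ESRP1, RAB25 and CDH1 were named after their values were seen.

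The promoter of CLDN3 is shown because E-boxes in promoters of epithelial genes are where SNAI and ZEB repressors are known to bind. The window at chr7:73770221-73770520 (GRCh38.p14, minus strand, RefSeq) is printed with matches to the E-box CAGGTG, searched on both strands, in capitals.
CLDN3: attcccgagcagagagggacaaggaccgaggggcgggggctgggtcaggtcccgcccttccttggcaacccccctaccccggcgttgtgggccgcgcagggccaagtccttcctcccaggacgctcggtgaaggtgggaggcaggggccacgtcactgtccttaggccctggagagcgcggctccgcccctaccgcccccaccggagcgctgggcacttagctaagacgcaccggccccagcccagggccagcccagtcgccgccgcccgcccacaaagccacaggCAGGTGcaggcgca
It held 1 match, after the start of the gene, and 20.6% of all 35116 windows held at least 1. No binding was measured here.

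Mesenchymal genes lay the other way but less evenly. Of 20 measured members 15 had a higher mean in RR, with a median of 0.57, and only TWIST2 was called. TWIST2, a repressor active in mesenchymal cells, had 4.24, 5.69 and 6.60 in the RR lines, against 4.25, 4.15 and 4.83 in Calu3, H1781 and H2009 (difference 1.23, limma p = 0.0323, exact permutation p = 0.0714), and it was not called without A549, H2228, HC827, Calu3 or H1781 (1.04 to 1.51). TNC, the matrix protein tenascin C, named after its values were seen, had 5.71, 9.64 and 11.75 in the RR lines, against 3.38, 3.18 and 10.62 (difference 3.50, limma p = 0.0925, exact permutation p = 0.143). The mean level of the list was 6.88, 6.78, 7.25, 7.69, 5.19 and 6.18 in A549, H1650, H1975, H2228, H3122 and HC827, against 6.12, 5.30 and 6.14 in the RS lines. H3122 was thus the lowest of the 9 lines. In the other probe set of TWIST2 the difference was 0.37. The 22 genes of the TGF-beta pathway had a median of 0.28 with 2 called, CD109 above and SMAD7, the inhibitory SMAD, which was higher by 1.35 (limma p = 0.0462, exact permutation p = 0.0595) and not called without A549, H1975, H2228, H3122, HC827, H1781 or H2009 (0.67 to 1.98; other probe sets 0.32 and 0.56). The 19 measured integrins and laminins had a median of -0.03 with none called.

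Of 15 genes listed for the ERBB receptors and their regulators 12 had a lower mean in RR, with a median of -0.75. The 2 called were ERBB2 and the adaptor GRB7, which lies near it on chromosome 17. ERBB3, the partner receptor of ERBB2, had 4.70, 8.05 and 9.46 in the RR lines, against 10.14, 10.41 and 9.70 in Calu3, H1781 and H2009, without overlap (difference -2.62, limma p = 0.0523, exact permutation p = 0.0714). LRIG1, a negative regulator of these receptors, had 3.82, 5.23 and 8.86, against 8.24, 10.47 and 6.51 (difference -2.73, limma p = 0.0522, exact permutation p = 0.0952). The list's median was -0.11 without Calu3 and -0.21 without H1781, and the mean of all probe sets gave -0.26. Of 10 measured EGF-family ligands 6 had a higher mean, with a median of 0.15 and none called.

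Of 22 output and feedback genes of the MAPK cascade 18 had a lower mean in RR, with a median of -0.56. The called members were EGR1, an immediate early transcription factor, and SPRY1, a feedback inhibitor. EGR1 had 5.72, 6.95 and 9.41 in the RR lines, against 11.95, 11.46 and 7.11 in Calu3, H1781 and H2009 (difference -2.87, SE 1.23, limma p = 0.0464, exact permutation p = 0.0833). H2009 was inside the RR range, and EGR1 was called only without H3122, HC827 or H2009 (-4.40 to -1.98). SPRY1 had 6.95, 7.74 and 9.69, against 8.42, 10.54 and 9.87 (difference -1.67, limma p = 0.0494, exact permutation p = 0.0595), and was called only without H3122 or without Calu3 (-2.26 to -1.20). DUSP6, the ERK phosphatase, had 5.93, 7.49 and 11.84, against 10.48, 11.56 and 10.35 (difference -2.55, limma p = 0.0854, exact permutation p = 0.143), with H3122 above and HC827 within the RS range. CCND1, which encodes cyclin D1, ran the other way, with 9.28, 10.71 and 12.16 in the RR lines, against 10.41, 8.62 and 8.59 (difference 1.50, limma p = 0.0532, exact permutation p = 0.0714). The list's median was -0.24 without Calu3. ERBB3, LRIG1, DUSP6 and CCND1 were named after their values were seen.

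**Figure D4:**
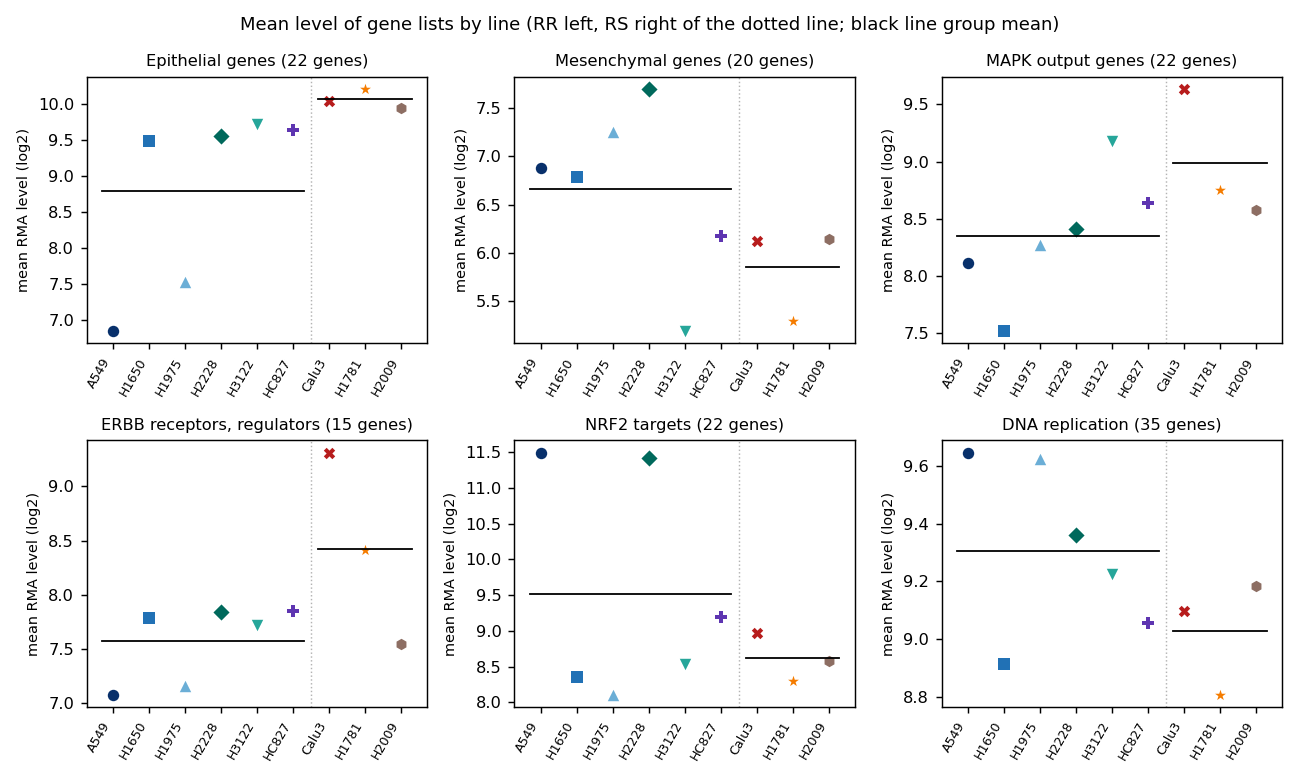
Mean level (log2 RMA) of 6 gene lists in each line, with the RR lines left and the RS lines right of the dotted line and a black line at each group mean. A549 and H1975 stand apart in the epithelial list, A549 and H2228 in the NRF2 targets, and Calu3 is highest in the ERBB and MAPK lists.

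No gene of the DNA repair lists was called. The 12 genes of non-homologous end joining had 8 higher means and a median of 0.08. The lowest p belonged to DCLRE1C, the nuclease Artemis that opens hairpin ends, with 6.25, 7.27 and 7.38 in the RR lines, against 7.81, 7.10 and 8.25 in Calu3, H1781 and H2009 (difference -0.62, limma p = 0.0842, exact permutation p = 0.143). Of 23 measured genes of homologous recombination and the Fanconi pathway, 21 had a higher mean in RR, with a small median of 0.20, and none was called. EXO1, an exonuclease that resects breaks, was at 7.42, 7.76 and 8.93 in the RR lines, against 7.51, 7.27 and 7.05 (difference 0.71, limma p = 0.0638, exact permutation p = 0.0833). Base excision and single-strand break repair had 7 higher and 8 lower means, a median of -0.04 and no call, with APTX, which repairs aborted ligation ends, at a difference of 0.49 (limma p = 0.0184, exact permutation p = 0.0238).

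The checkpoint list of 18 genes had 11 higher means, a median of 0.10 and no call. CHEK1, the kinase that halts the cycle in S and G2 phase, was the only member whose groups did not overlap. Its levels were 8.45, 8.87 and 9.46 in the RR lines, against 8.18, 7.84 and 8.44 in Calu3, H1781 and H2009, with HC827 and H2009 only 0.007 apart. The difference was 0.78 (SE 0.23, limma p = 0.00862, exact permutation p = 0.0119), below the fold limit, and its 5 other probe sets gave 0.72 to 0.98. Of 35 DNA replication genes 27 had a higher mean, with a median of 0.31 and no call, and MCM4, a subunit of the replicative helicase, had 9.96, 10.85 and 11.02 in the RR lines, against 8.73, 9.82 and 10.47 (difference 0.98, limma p = 0.0359, exact permutation p = 0.0476). The mean level of the replication list was 8.91 to 9.65 in the RR lines and 8.81 to 9.18 in the RS lines. The 21 mitotic genes had 14 higher means, a median of 0.21 and no call.

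Of 21 measured p53 targets 13 had a higher mean, with a median of 0.25. TIGAR, a phosphatase that diverts glucose to the pentose phosphate route, was called, with 6.81, 7.92 and 8.83 in the RR lines, against 6.86, 6.65 and 6.69 (difference 1.14, limma p = 0.0184, exact permutation p = 0.0476, not called without HC827, H1781 or H2009, 0.95 to 1.35; other probe set 0.48). CDKN1A, the p53-induced inhibitor p21, named after its values were seen, had 8.47, 9.49 and 11.42, against 8.15, 8.84 and 7.97 (difference 1.33, limma p = 0.0715, exact permutation p = 0.107). The 16 genes of the BCL2 family had a median of -0.03 and no call.

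The list that lay highest was that of NRF2 targets. Of 22 measured members 18 had a higher mean in RR, with a median of 0.98, and HMOX1, which breaks down haem, was called. HMOX1 had 6.04, 8.50 and 9.66 in the RR lines, against 4.64, 6.41 and 7.42 in Calu3, H1781 and H2009 (difference 2.18, SE 0.86, limma p = 0.0342, exact permutation p = 0.0476, not called without A549, H1975, HC827, Calu3 or H1781, 1.42 to 2.81). The list's mean level was 11.49 in A549 and 11.42 in H2228, and 8.35, 8.11, 8.54 and 9.19 in H1650, H1975, H3122 and HC827, against 8.97, 8.30 and 8.58 in the RS lines. The median was 0.51 without A549 and 0.37 without H2228. The 20 measured antioxidant enzymes had 15 higher means, a median of 0.39 and no call, and TXN, thioredoxin, had 13.38, 13.48 and 13.98 in the RR lines, against 12.68, 12.64 and 13.75 (difference 0.53, limma p = 0.0733, exact permutation p = 0.0952).

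Of 24 measured hypoxia targets 19 had a higher mean in RR, with a median of 0.40 and 3 called in both directions. EGLN3, the oxygen-sensing prolyl hydroxylase PHD3, had 6.23, 7.43 and 8.59 in the RR lines, against 5.15, 4.03 and 6.29 in Calu3, H1781 and H2009 (difference 2.12, SE 0.62, limma p = 0.00825, exact permutation p = 0.0238). Only A549 overlapped, with H2009, and the call held with any line left out (1.56 to 2.69) but not with SF2 order as predictor, without the EGFR lines or without the ERBB2-driven lines. Its 2 other probe sets gave 0.12 and 1.45. STC2, stanniocalcin, was higher by 2.59 (limma p = 0.0481, exact permutation p = 0.0595), and it was called only without A549 or without H2009 (1.28 to 3.52). VEGFA, the angiogenic factor, was lower, with 9.08, 10.48 and 11.17 in the RR lines, against 11.91, 12.34 and 10.69 (difference -1.47, SE 0.55, limma p = 0.0278, exact permutation p = 0.0714, not called without Calu3 or H1781, -1.94 to -1.12).

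Lists of immune and lineage genes held few calls. Interferon-stimulated genes (26 measured, median 0.12), MHC class I presentation (14, median 0.12), cytokines and chemokines (29, median 0.05), mucous cell genes (20, median 0.14), neuroendocrine markers (12, median 0.18), the protocadherin beta cluster (16, median 0.33), APOBEC3 genes (6, median -0.01) and the measured radiosensitivity index genes (7, median 0.09) had none. The 10 measured squamous markers had only KRT13 called, the 21 alveolar and club cell markers only AQP4, and the 20 Notch pathway genes only HES1, a Notch target, lower by 1.40 on the log2 scale (limma p = 0.0425, exact permutation p = 0.0714) and not called without A549, H1650, H1975, HC827, Calu3 or H1781 (-2.01 to -0.98; its 4 other probe sets gave -1.27 to -0.09).

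**Figure D5:**
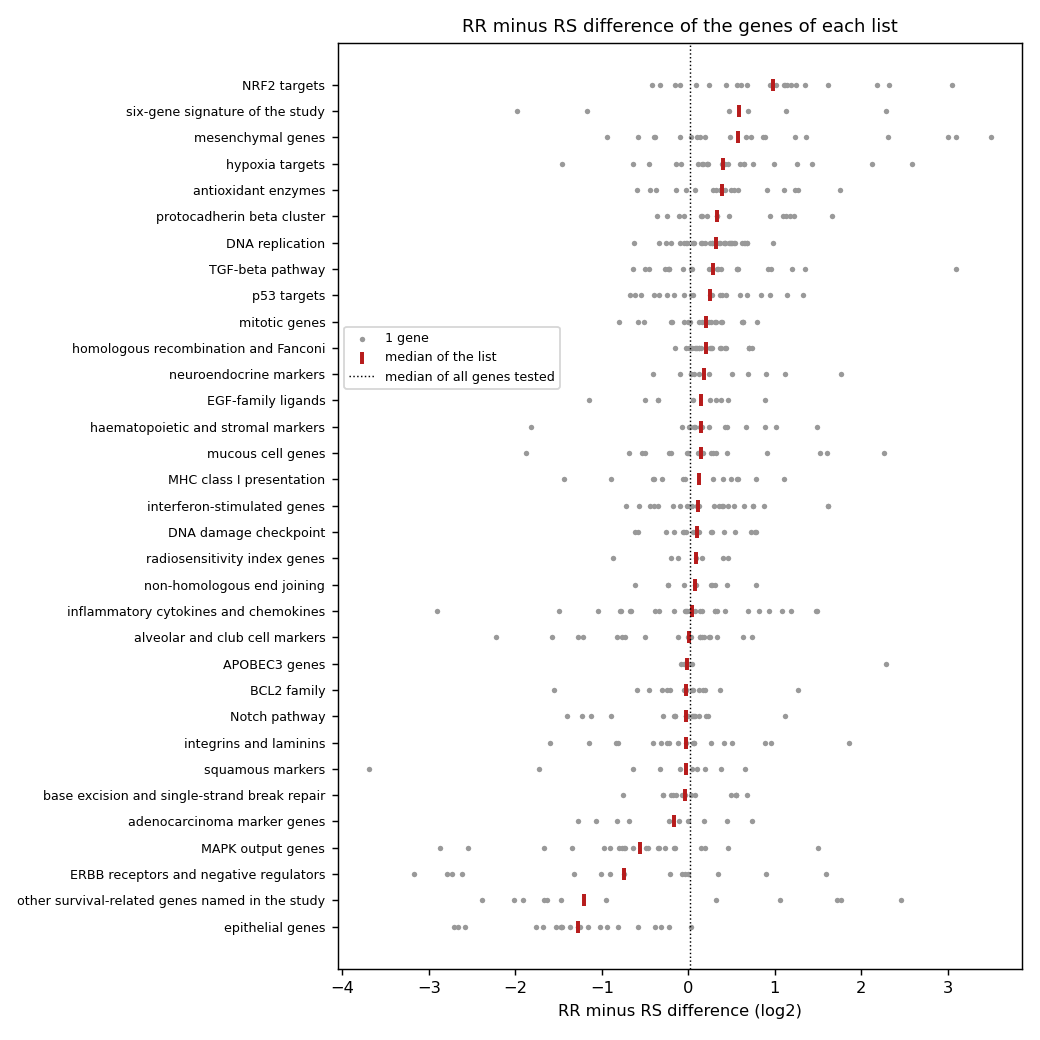
RR minus RS difference (log2) of the measured genes of 33 lists, ordered by their medians (red), with the median of all genes as a dotted line. The epithelial list lies lowest (median -1.27) and the NRF2 targets highest (0.98), and the repair lists lie close to 0.

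The 6-gene signature of the study was drawn from genes that differed between the RR and RS lines of this panel. Its members were then chosen by their relation to survival in patients. They are therefore not independent evidence of a direction in these lines. In these 9 lines 2 of its 6 genes were called, both lower. FAM117A had 4.07, 5.91 and 7.50 in the RR lines, against 8.78, 7.76 and 6.94 in Calu3, H1781 and H2009 (difference -1.98, limma p = 0.0324, exact permutation p = 0.0595, not called without H2228, Calu3 or H1781, -2.43 to -1.51; other probe set -0.45). KCNQ1OT1, a long noncoding RNA of an imprinted region, had 2.99, 3.62 and 4.10, against 3.67, 5.57 and 4.98 (difference -1.17, limma p = 0.0212, exact permutation p = 0.0476, not called without H1781 or H2009, -1.71 to -0.76). The levels of KCNQ1OT1 in the RR lines, Calu3 and H2009 were at the dim end of the array, and it had only 1 probe set. APOBEC3B, a cytidine deaminase, had 8.18, 9.10 and 9.71 in the RR lines, against 9.80, 7.27 and 3.2, so that Calu3 was the highest and H2009 the lowest of the 9 lines (difference 2.28, SE 1.18, limma p = 0.0862, exact permutation p = 0.0952). PCDHB2, GOLM1 and USP43 had differences of 1.13, 0.69 and 0.47 (limma p = 0.272, 0.178 and 0.378, exact permutation p = 0.357, 0.25 and 0.417).

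Of 12 other genes that the study named for survival in patients, also drawn from the genes that differed on this panel, 5 were called. PAIP2B, ATP6AP1L, KLHL24 and MLF1 were lower and HECW2, a ubiquitin ligase, was higher. KLHL24, a substrate adaptor of ubiquitin ligases, had 5.91, 6.86 and 7.09 in the RR lines, against 9.72, 9.23 and 6.94 (difference -2.01, SE 0.59, limma p = 0.00828, exact permutation p = 0.0357). Its call was lost without H1781 and H3122, without the ERBB2-driven lines and with H358 and H1437 added. MLF1 had 5.68, 7.27 and 8.14, against 10.51, 8.12 and 7.84 (difference -1.67, limma p = 0.0473, exact permutation p = 0.0833, not called without A549, H1975, H2228, H3122 or Calu3, -2.16 to -0.82), and HECW2 had 5.26, 7.04 and 8.46, against 4.86, 4.98 and 5.62 (difference 1.72, limma p = 0.0358, exact permutation p = 0.0714, not called without A549, H1650, H1975, H2228, Calu3 or H1781, 1.40 to 2.04; other probe sets 0.35 and 1.27). BASP1 and TUBB3, a neuronal tubulin, had differences of 2.46 and 1.77 (limma p = 0.0511 and 0.056, exact permutation p = 0.0476 and 0.0952). MLF1, HECW2, BASP1 and TUBB3 were named after their values were seen.

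The 6 lines of other histology, 2 RR (H358 and H460) and 4 RS (Calu1, H1437, H226 and H520), were set beside the called genes. Calu1, H226 and H520 are squamous, H358 and H1437 bronchioloalveolar and H460 large cell. All squamous lines were thus RS, so radiation response and histology cannot be fully told apart in these 6 lines. The SF2 of H520 came from the literature and not from the clonogenicity test. Of the 224, 94 had the same direction there (42.0%), beside 48.7% of all genes. By direction it was 43 of the 80 genes higher (53.8%, beside 45.9% of all genes with a higher mean) and 51 of the 144 genes lower (35.4%, beside 51.9%). No gene passed an adjusted p of 0.05 in limma's test of whether the difference depends on histology (lowest adjusted p 0.928, 643 genes at an unadjusted p under 0.05). SPOCK1 was at 3.82 and 12.79 in the RR lines H358 and H460, against 6.85, 4.30, 6.56 and 11.12 in the RS lines Calu1, H1437, H226 and H520, so it did not separate those lines. CDKN2A was at 10.98 and 4.21 in H358 and H460, against 12.24, 4.61, 4.07 and 11.05. ENPP5 was at 6.57 and 3.61, against 3.72, 3.54, 3.97 and 5.15, opposite in direction to the adenocarcinoma lines (difference of differences -4.14, limma adjusted p = 0.999). ATP6AP1L was at 5.21 and 5.38, against 8.77, 6.40, 5.87 and 5.73, a difference of -1.40 beside -1.47 in the adenocarcinoma lines. The study drew ATP6AP1L from genes that differed over the whole panel, these 6 lines included, so the shared direction is not independent evidence. The epithelial list had a median of 0.11 in these lines, with 9 of 22 means lower.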

How the data were processed

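RNA of 15 untreated NSCLC lines was measured on 1 Affymetrix PrimeView array each, and the 9 adenocarcinoma lines were used for the main comparison. The deposited values are log2 levels that the authors made by robust multi-array averaging (RMA) with affy 1.64.0, per the submitters' processing notes. The labels and the methods of the study disagree on labelling, RNA extraction and media, which were not resolved. Of 49495 probe sets 100 ERCC and 102 AFFX controls were set aside, and 44988 with a single annotated gene were kept, leaving out 1832 with several genes and 2473 with none. Each of 18132 genes was read from its probe set with the highest mean over 15 lines. Names, neighbours and promoter windows came from RefSeq tables (GRCh38.p14).

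RR minus RS was tested with limma 3.58.1 (lmFit and eBayes, R 4.3.3) over the 9 lines, with p-values adjusted over all genes by Benjamini-Hochberg, and with an exact permutation test over 84 splits. Dependence on histology was tested as an interaction over 15 lines in 4 groups. The number of arrays limits the precision. The scripts were tested on simulated data. Named genes were the 12 called genes with the largest difference and the 8 without overlap with the widest gap in each direction, up to 3 called members of each list (or the member with the lowest p), the signature genes and identity checks. Others are said to have been named after their values were seen. The comparison, the lists and the tests were chosen with earlier results of these data known.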

Additional observations from a re-analysis of the deposited data

Results flagged for a closer look

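In 4 of the 90 named genes 1 of the 6 RR lines lay far from the other 5, with a gap to its nearest neighbour, as a share of the whole range, above Dixon's critical value of 0.625. Chance flags about 1 in 20 such groups. LOXL2 was low in H3122, at 4.95 against 8.68 to 10.80 in the other RR lines (share 0.6375). SATB1 was high in H3122, at 7.28 against 4.21 to 5.07 (share 0.7188). DCLRE1C was low in HC827, at 6.25 against 7.12 to 7.38 (share 0.7691). TXN was high in H2228, at 13.98 against 13.38 to 13.56 (share 0.6935).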

How the results depend on the processing

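Of the 54 named genes that were called, 3 (ZNF480, PAIP2B and ATP6AP1L) were called under every alternative and 20 with any single line left out. The count of 224 called genes was 376 with the order of SF2 as predictor, 346 without H1781 and H3122, 435 without the ALK-rearranged lines, 430 without the ERBB2-altered lines, 145 with H358 and H1437 added and 139 with the methods' t-test. A higher count did not mean that the 224 were kept. Of them, 122 were also called with the order of SF2 and 108 without H1781 and H3122. The number kept was 156 without the ALK-rearranged lines, 77 without the EGFR-mutant lines and 79 with H358 and H1437 added. The methods' t-test kept 139. Leaving out single lines gave counts of 168 (without H1975) to 522 (without H2009), with 352 without H3122 and 346 without Calu3. Of the 224, these omissions kept 85 (without H1781) to 182 (without H3122). Centring the arrays gave 91 higher and 136 lower and kept 216 of the 224. The count at an adjusted p of 0.05 in limma's test was 1 without the EGFR-mutant lines (CDKN2A), 16 without the ERBB2-altered lines, where H2009 alone was assumed to vary like the RR lines, and 0 to 4 with single lines left out (KRT13 without H1781; FREM2, PRR15L, SOX6 and TNFRSF19 without H2009). The count of 335 genes without overlap was 199 with dim genes left out, 1447 without H1781 and H3122, 1474 without the EGFR-mutant, 1092 without the ALK-rearranged and 4543 without the ERBB2-altered lines, which leave fewer lines to overlap, 59 with H358 and H1437 added, and 468 to 1383 with single lines left out (568 without H1650 or H2228, 602 without H3122, 1128 without Calu3, 1037 without H1781 and 1383 without H2009). The count of genes that depended on histology was 0 to 62 with single lines left out, with 62 without H358, 22 without H460, 3 without H2009 and 1 each without H1781, H2228 or H520.

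Directions turned without the ERBB2-altered lines for TCEAL8 (-0.66), EGR1 (0.19), TXN (-0.20), AQP4 (0.0067), GOLM1 (-0.44), PCDHB2 (-0.86), GSDMB (0.25), STARD3 (0.063), MIEN1 (0.71), PSMD3 (0.0876) and TNC (-1.39). They turned with H358 and H1437 added for CD14 (-0.60) and NKX2-1 (0.74), and without the ALK-rearranged lines for ALK (-0.14) and MTAP (0.14). With single lines left out, PCDHB2 ranged from -0.39 (without Calu3) to 2.13, NKX2-1 from -3.00 to 0.34 (without H1781; 0.19 without H2009) and MIEN1 from -2.19 to 0.32 (without Calu3). The causes were not tested. No paired analysis was possible because the lines of the groups are different tumours and the labels give them no shared numbers.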
